A study of Mus musculus with 8 samples.

Results

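The Toll-like receptors are the subject here, as measured in mouse peritoneal macrophages with and without loading by acetylated low-density lipoprotein (Ac-LDL). The members were all probes of the array whose gene symbol was one of 10 receptor genes (*Tlr1* to *Tlr9* and *Tlr13*), and they came to 15 of the 45281 probes and 10 of the 30789 gene symbols on the array. The study compared 4 samples incubated with 120 μg per ml Ac-LDL for 24 h with 4 mock-treated control samples, with replicate numbers 1 to 4 on either side, in order to find genes that cholesterol loading changes on the way to foam cells. All 8 samples were macrophages of C57/BL6 mice aged 8 weeks, drawn into the peritoneal cavity by the irritant thioglycollate, and no sample carried a genetic alteration. According to the study's methods the mice were adult males, the adherent cells were kept in medium conditioned by L-929 cells, and RNA was hybridized to an Illumina bead chip. Whether each number stands for 1 mouse or for pooled mice is not given in the sources used here, so that p-values measure the spread between these samples, which may be in part technical. Replicates 1 and 2 of both groups lay on one slide (slide 1) and replicates 3 and 4 of both groups on another (slide 2).

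Toll-like receptors are membrane proteins with an outer domain of leucine-rich repeats that binds microbial molecules and an inner TIR domain that recruits adaptors. TLR1, TLR2, TLR4, TLR5 and TLR6 sit on the cell surface and bind bacterial lipoproteins, lipopolysaccharide and flagellin, whereas TLR3, TLR7, TLR8, TLR9 and TLR13 sit in endosomes and bind nucleic acids. The adaptor MyD88 serves all of them except TLR3, which signals through TRIF, and both routes lead to NF-kB and interferon regulatory factors. Macrophages are known for strong surface receptor signalling, and lipid-loaded macrophages of the artery wall have been studied for the part that TLR2 and TLR4 play there.

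The 15 probes are each 50 bases long, and 3 are shown because the receptors they measure are the ones most easily confused or are central to the comparison. *Tlr1* and *Tlr6* encode closely related partners of TLR2 and are neighbours on chromosome 5, with no gene between them in the GRCm38.p6 gene table, and *Tlr7* and *Tlr8* are neighbours on chromosome X in the same way. The *Tlr1* and *Tlr6* probes below overlap in matching parts of the 2 genes, and capitals mark the 26 of 36 aligned bases that are identical.
Tlr1: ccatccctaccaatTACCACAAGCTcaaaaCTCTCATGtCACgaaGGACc
Tlr6: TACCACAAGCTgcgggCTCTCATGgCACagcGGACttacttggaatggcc
Tlr8: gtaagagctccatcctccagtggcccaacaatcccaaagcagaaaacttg
All 3 read 5′ to 3′, and the array's annotation places them on the minus strand without naming a genome build. The longest run of bases shared by the *Tlr1* and *Tlr6* probes was 11, and that shared by the *Tlr7* and *Tlr8* probes was 5. Over all 99 pairs of probes of different receptors the longest shared run was 12. No test for cross-hybridization between receptors was made.

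On each array between 16679 and 17439 probes were detected, meaning that their detection p-value against the negative controls of that array was at most 0.05, and each intensity was the mean of a median of 43 to 44 beads. Intensities were background-corrected, quantile-normalized and put on a log2 scale, and a probe was tested if it was detected on 4 or more of the 8 arrays, which left 17122 probes. Loading was visible in sterol synthesis, which cells lower when cholesterol is plentiful. *Fdps*, which encodes an enzyme of that pathway, fell from 11.44 ± 0.31 in control to 9.74 ± 0.34 in Ac-LDL samples (SD, n = 4; limma, adjusted p = 0.028). Macrophage markers were measured throughout, since all 8 of a list of 8 (*Adgre1*, *Cd68*, *Csf1r*, *Itgam*, *Lyz2*, *Mertk*, *Fcgr1* and *Cd14*) had a tested probe. No marker of eosinophils, mast cells or T cells had a tested probe. Of 8 neutrophil markers 2 had one, *S100a8* at 9.20 ± 0.07 in control and 9.44 ± 0.07 in Ac-LDL samples, without overlap of the groups (SD, n = 4; limma, adjusted p = 0.845), and *Ltf* near background at 4.67 ± 0.22 and 4.87 ± 0.27, whereas *S100a9* was detected on 0 arrays. Of 4 plasmacytoid dendritic cell markers *Tcf4* was at 9.15 ± 0.41 in control samples and *Pacsin1* at 5.03 ± 0.35, whereas *Siglech* was detected on 0 arrays. The dendritic cell marker *Zbtb46* and the B cell marker *Ms4a1* had tested probes near background, at 4.75 ± 0.08 and 4.87 ± 0.21. All 5 fibroblast markers were detected, *Dcn* at 13.21 ± 0.21 in control samples, and the deposited intensities of the 5 summed to 10700 to 14800 in control and 10400 to 12000 in Ac-LDL samples. Their part in the receptor values was not tested. In such bulk samples, fewer cells of a type and less RNA per cell cannot be told apart.

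Of the 10 receptors, 8 had a tested probe, and each is given by its brightest tested probe. In control macrophages the *Tlr13* probe was the brightest, at 10.10 ± 0.32 on the log2 scale (SD, n = 4). Next came *Tlr4* at 8.57 ± 0.22, *Tlr6* at 8.18 ± 0.25, *Tlr2* at 8.12 ± 0.26 and *Tlr7* at 8.04 ± 0.87. A lower tier held *Tlr1* at 5.74 ± 0.78, *Tlr8* at 5.60 ± 0.51 and *Tlr5* at 5.46 ± 0.47. The intensity of a bead depends on how well its own probe hybridizes, so this is an order of probe signals and not of mRNA amounts, and no test was made between probes. Within the middle and lower tiers the ranges of neighbouring receptors over the 4 control arrays overlapped. Ranges of different tiers did not overlap, with 1.53 between the means of *Tlr13* and *Tlr4* and 2.30 between those of *Tlr7* and *Tlr1*. *Tlr7* varied most in place, from rank 2 on one control array to rank 5 on another, whereas *Tlr8* held rank 7 on all 4.

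**Figure D1:**
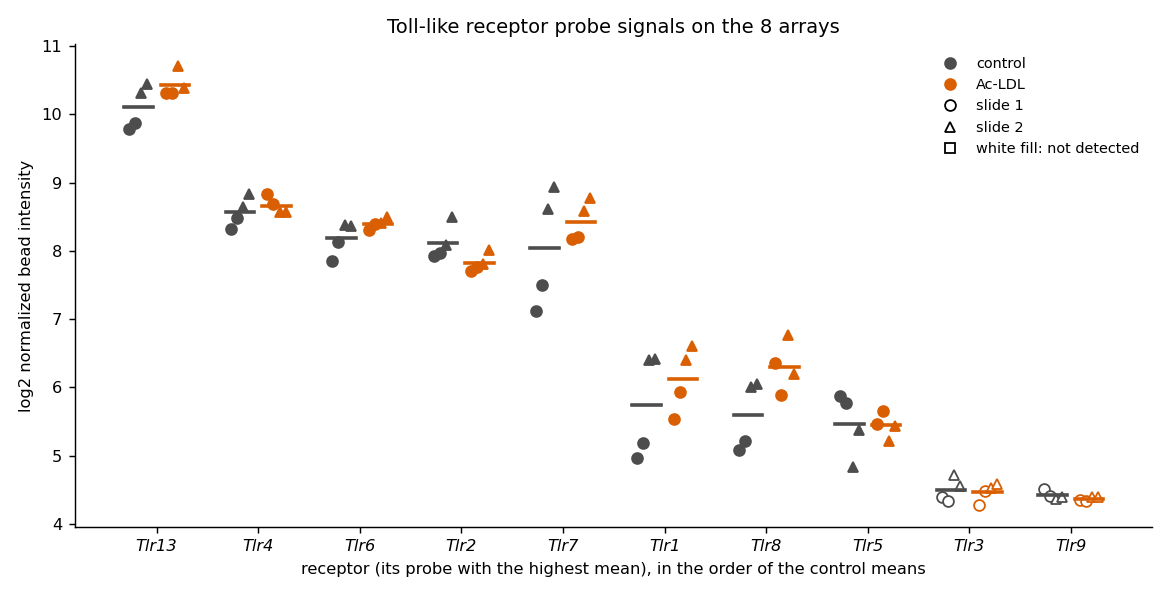
Log2 normalized bead intensity of the brightest probe of each of the 10 receptors on the 4 control (grey) and 4 Ac-LDL (orange) arrays, ordered by control mean, with slide 1 as circles, slide 2 as triangles, group means as lines and undetected values in white. The *Tlr13* signals lie above all others, *Tlr4*, *Tlr6*, *Tlr2* and *Tlr7* share a middle tier, and *Tlr3* and *Tlr9* were detected on no array.

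The receptors for double-stranded RNA (TLR3) and for unmethylated CpG DNA (TLR9) were not well above background in either group. The *Tlr3* probe was at 4.50 ± 0.17 in control and 4.47 ± 0.14 in Ac-LDL samples, and the brighter of 2 *Tlr9* probes at 4.42 ± 0.06 and 4.37 ± 0.03, and neither was detected on any of the 8 arrays (SD, n = 4). Another *Tlr4* probe, nearer the start of the transcript, was also detected on no array, at 4.39 ± 0.10 in control samples, although the remaining *Tlr4* probes were detected on all 8. Detected and undetected probes thus occurred for the same gene, and an undetected probe alone does not show that a gene is unexpressed. *Tlr11* and *Tlr12*, the remaining mouse receptors, were likewise undetected, with control means of 4.31 and 4.44.

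The comparison of Ac-LDL with control samples called no receptor. Of the 8 receptors tested, 6 had a higher and 2 a lower mean in the Ac-LDL samples, against 50.4% higher among all tested probes, and the median log2 fold change was 0.27 against 0.00122 over all probes. None of the 8 passed an adjusted p of 0.05 in limma, a threshold that 0.0409% of all tested probes passed. Only *Tlr8* had an unadjusted p under 0.05, as did 5.2% of all tested probes. By their brightest probes the groups of 4 overlapped for all 8 receptors, while 3.8% of all tested probes had groups that did not overlap.

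*Tlr8*, an endosomal receptor for breakdown products of RNA, had the largest difference. On control arrays 1 to 4 its log2 intensity was 5.09, 5.22, 6.01 and 6.05, and on Ac-LDL arrays 1 to 4 it was 6.36, 5.89, 6.77 and 6.20. Both low control values were from slide 1, and the Ac-LDL array of replicate 2 lay below the control arrays of slide 2, so that the groups overlapped. Each Ac-LDL array was nonetheless above the control array of its own number, by 1.27, 0.67, 0.75 and 0.15. The log2 fold change was 0.71 ± 0.25 (SE), a 1.63-fold difference with a 95% interval of 1.1 to 2.41, and it did not pass the adjustment over all probes (limma, adjusted p = 0.85). An exact two-sided permutation test of the same 4 against 4 arrays gave p = 0.0857. That test ignores the replicate numbers and the slides, and the smallest p it allows is 0.0286. As deposited, the signals were low, between 57.4 and 138, although the probe was detected on all 8 arrays.

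*Tlr7*, the neighbouring gene and the endosomal receptor for single-stranded RNA, showed a different pattern. Its control values were 7.12, 7.50, 8.61 and 8.94, and its Ac-LDL values 8.17, 8.20, 8.58 and 8.77. The control arrays thus fell into a low pair on slide 1 and a high pair on slide 2, and the 4 Ac-LDL arrays lay above the low pair and reached into the high one. The log2 fold change was 0.39 ± 0.36 with a 95% interval of -0.42 to 1.20 (limma, adjusted p = 0.979). Leaving out single arrays moved it to between 0.08, without control replicate 1, and 0.69, without control replicate 4. On slide 1 the Ac-LDL mean was 0.87 above the control mean, and on slide 2 it was 0.10 below, a log2 difference of -0.10.

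Set side by side, *Tlr8* lay below *Tlr7* by a log2 difference of -2.45 ± 0.38 in control and -2.13 ± 0.38 in Ac-LDL samples (SD, n = 4), values that carry the difference between the probes themselves. The change of *Tlr8* exceeded that of *Tlr7* by 0.32, which an exact two-sided permutation test over the 4 arrays a group did not separate from 0 (p = 0.286). This excess was 0.09 on slide 1 and 0.55 on slide 2. A larger effect on *Tlr8* than on *Tlr7* was thus not shown by these arrays.

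*Tlr13*, which recognizes a sequence of bacterial ribosomal RNA and is not present in humans, was the third endosomal receptor with a tested probe. It was at 9.78, 9.88, 10.31 and 10.44 in control samples and at 10.31, 10.32, 10.71 and 10.38 in Ac-LDL samples. Of the 4 pairs of arrays with the same number, 3 were higher with Ac-LDL, and the control arrays of slide 2 lay among those with Ac-LDL. The log2 fold change was 0.33 ± 0.16 (limma, adjusted p = 0.949). Its dimmer probe gave 0.22 ± 0.18 (limma, adjusted p = 0.969). All 3 endosomal receptors with a tested probe had higher means with Ac-LDL, with values of 0.33, 0.39 and 0.71, and none passed the test. *Tlr3* and *Tlr9* were not detected and so not tested. Of the 5 surface receptors 3 had higher and 2 lower means, with values from -0.29 to 0.38.

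Among the surface receptors *Tlr2*, which pairs with TLR1 or TLR6 to bind lipoproteins, was the one with lower values in every pair. Control arrays were at 7.92, 7.97, 8.08 and 8.49 and Ac-LDL arrays at 7.71, 7.77, 7.81 and 8.02. The Ac-LDL array of each number was below its control by between 0.21 and 0.47, and the groups overlapped because Ac-LDL replicate 4 lay above both control arrays of slide 1. The log2 fold change was -0.29 ± 0.14, with a 95% interval of -0.59 to 0.01 (limma, adjusted p = 0.946), and the exact two-sided permutation test gave p = 0.0857.

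Its partner *Tlr6* was at 7.85, 8.13, 8.38 and 8.37 in control and 8.30, 8.39, 8.41 and 8.49 in Ac-LDL samples, higher in all 4 pairs. The difference was carried by slide 1, at 0.35 on the log2 scale against 0.07 on slide 2, and the fit gave 0.21 ± 0.13 (limma, adjusted p = 0.961). A second, dimmer *Tlr6* probe was close to background at 5.27 ± 0.12 and 5.47 ± 0.09 (SD, n = 4). It was the only one of the 11 tested receptor probes whose groups did not overlap, beside 3.8% of all tested probes. Groups that do not overlap always give the smallest possible exact two-sided permutation p, here 0.0286, so that p adds nothing further. The adjusted p of this probe was 0.949 in limma.

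The other partner, *Tlr1*, was at 4.96, 5.19, 6.40 and 6.42 in control and 5.54, 5.94, 6.40 and 6.60 in Ac-LDL samples. The slides lay further apart than the groups, and the log2 fold change of 0.38 ± 0.36 did not pass the test (limma, adjusted p = 0.979).

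*Tlr4*, the lipopolysaccharide receptor, was at 8.32, 8.48, 8.65 and 8.83 in control and 8.83, 8.69, 8.57 and 8.57 in Ac-LDL samples. The Ac-LDL mean was higher by 0.36 on slide 1 and lower on slide 2, with a difference of -0.17, so that 2 of 4 pairs went each way. Over both slides the log2 fold change was 0.10 with a 95% interval of -0.18 to 0.38 (limma, adjusted p = 0.987), and a second probe gave 0.12 with an interval of -0.09 to 0.32. For the flagellin receptor gene *Tlr5*, control arrays were at 5.87, 5.77, 4.84 and 5.37 and Ac-LDL arrays at 5.47, 5.65, 5.22 and 5.43, a log2 fold change of -0.02 with an interval of -0.48 to 0.44. The *Tlr1* interval was -0.42 to 1.18. In this unblocked fit a sizeable change in either direction of *Tlr5* or *Tlr1* would lie within the intervals, whereas those of *Tlr4* are narrower. When the fit was blocked by replicate number, intervals were 0.09 to 0.67 for *Tlr1* and -0.30 to 0.25 for *Tlr5*. That of the brightest *Tlr4* probe was then -0.19 to 0.38. These intervals are not adjusted for the number of probes, and *Tlr1* did not pass the blocked test (limma, adjusted p = 0.256).

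**Figure D2:**
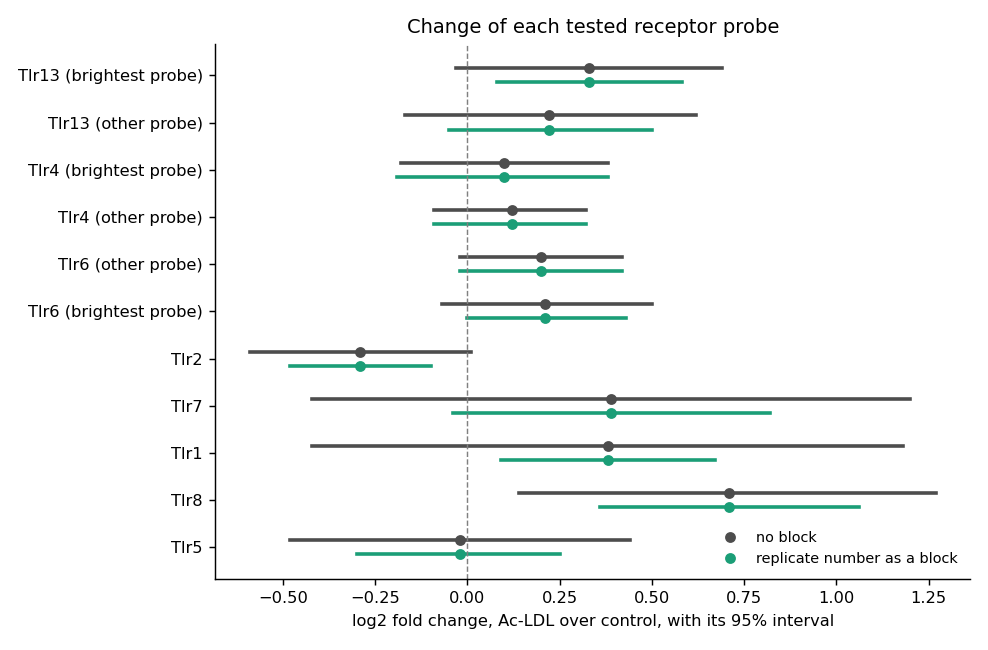
Log2 fold change of Ac-LDL over control with its 95% interval for the 11 tested receptor probes, without a block (grey) and blocked by replicate number (green). Without the block only the *Tlr8* interval, from 0.14 to 1.27, lies clear of 0, and no probe passed the adjusted test in either fit.

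Arrays of the same number deviated together, so a fit with the replicate number as a block is the second view of each receptor. With the block 5 of the 8 receptors had an unadjusted p under 0.05, as did 13.8% of all tested probes. These were *Tlr8* (adjusted p = 0.114), *Tlr2* (adjusted p = 0.204), *Tlr13* (adjusted p = 0.25), *Tlr1* (adjusted p = 0.256) and *Tlr6* (adjusted p = 0.354), all by limma, and 4 had higher and 1, *Tlr2*, lower means with Ac-LDL. No receptor passed the adjusted p of 0.05, which 0.444% of all tested probes passed. With the slide as the block the same 5 receptors had an unadjusted p under 0.05, against 12.1% of all tested probes, and again none passed the adjusted p, which 0.321% of all probes did.

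**Figure D3:**
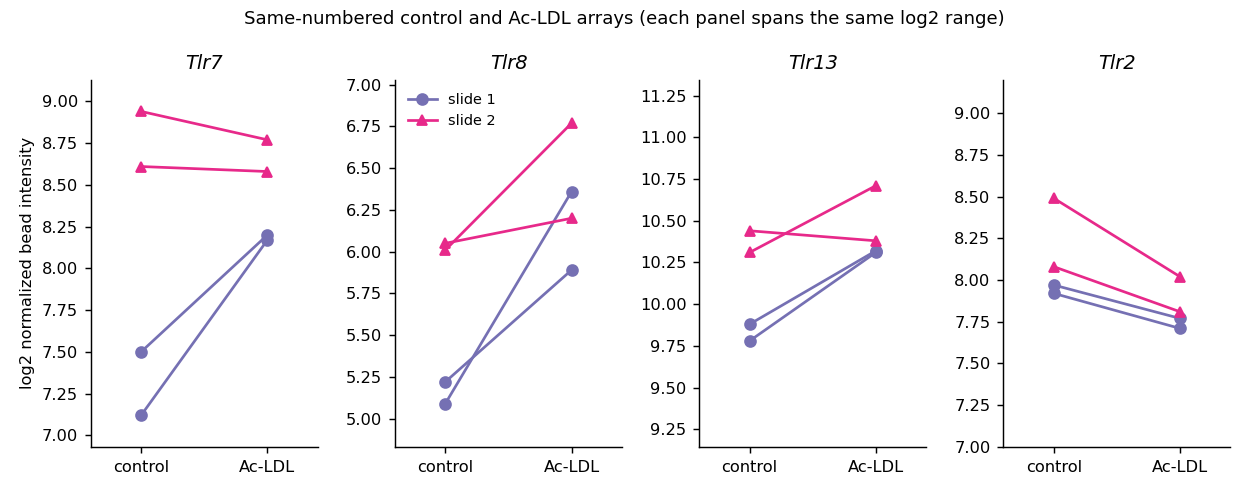
Log2 normalized bead intensity of *Tlr7*, *Tlr8*, *Tlr13* and *Tlr2* on the control and Ac-LDL arrays, with a line joining arrays of the same replicate number and colours and symbols marking the slide. All 4 lines of *Tlr8* run upwards and all 4 of *Tlr2* downwards, while those of *Tlr7* run upwards on slide 1 and slightly downwards on slide 2.

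The difference between slides was larger than that between groups for several receptors. A comparison of the slides, added after these data were seen, called 23.6% of all tested probes and 5 of the 8 receptors. *Tlr1* was 2.07-fold higher on slide 2 (adjusted p = 0.00136), *Tlr7* 1.97-fold (adjusted p = 0.00604), *Tlr8* 1.53-fold (adjusted p = 0.0205) and *Tlr13* 1.31-fold (adjusted p = 0.0245), whereas *Tlr5* was 1.39-fold lower (adjusted p = 0.0337), all by limma. *Tlr2*, *Tlr4* and *Tlr6* did not pass that test. Since replicates 1 and 2 share one slide and 3 and 4 the other, the slide and anything else that separated those replicates cannot be told apart.

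Some macrophage markers differed between the slides too. Beside the 23.6% of all tested probes called between slides, 4 of the 8 macrophage markers were called higher on slide 2 and 0 lower, among them *Adgre1*, which encodes F4/80, at 2.29-fold and *Itgam*, which encodes CD11b, at 2.02-fold (limma, adjusted p = 0.00115 and 0.00127), both named after their values were seen. The other markers called were *Csf1r* at 1.73-fold and *Cd14* at 1.5-fold. As deposited, before normalization, the intensities of the 8 summed to 34400 to 37600 on slide 1 and 43600 to 48400 on slide 2. *Lyz2* and *Cd68*, the brightest of the 8, were not called after normalization, at 1.1-fold and 1.04-fold (limma, adjusted p = 0.208 and 0.67). Of the 5 fibroblast markers, 2 were called lower on slide 2, beside the same 23.6%. The part of these markers in the receptor values was not tested.

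Whether the Ac-LDL difference itself depended on the slide was tested as an interaction, also added after these data were seen. The difference was smaller on slide 2 than on slide 1 for *Tlr7* by 0.97 on the log2 scale, an interaction of -0.97 with a 95% interval of -1.50 to -0.45 (limma, adjusted p = 0.442). For *Tlr1* the interaction was -0.58, for *Tlr4* -0.53 and for *Tlr8* -0.52 (limma, adjusted p = 0.563, 0.501 and 0.664). None passed the adjusted test, which 0% of all tested probes did, and 1435 of the 17122 had an unadjusted p under 0.05. *Tlr8* kept its direction on both slides, at 0.97 on slide 1 and 0.45 on slide 2. So did *Tlr2* at -0.21 and -0.37 and *Tlr1* at 0.67 and 0.09. By their brightest probes *Tlr6* at 0.35 and 0.07 and *Tlr13* at 0.49 and 0.17 did as well. The dimmer *Tlr13* probe changed sign, at 0.49 on slide 1 and -0.04 on slide 2.

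**Figure D4:**
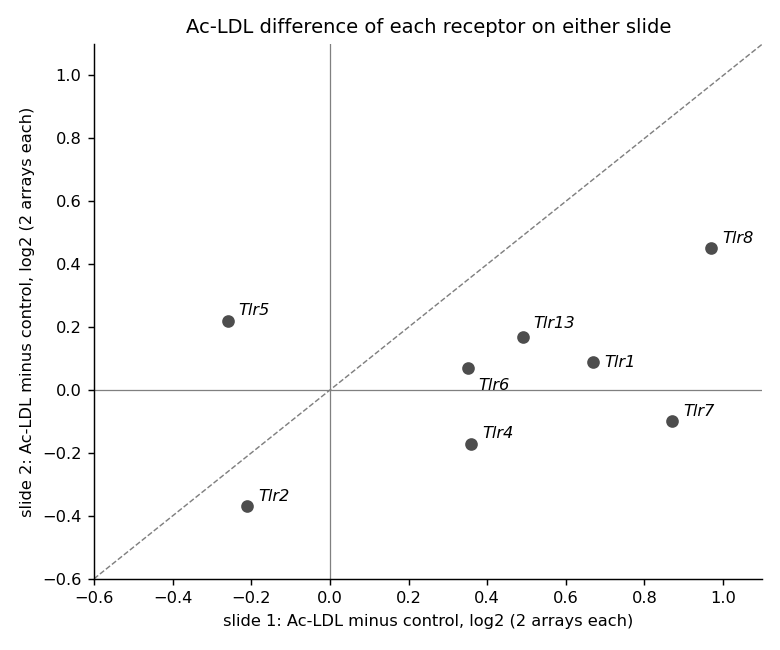
Ac-LDL minus control log2 difference of each tested receptor on slide 1 (horizontal axis) and slide 2 (vertical axis), each from 2 against 2 arrays, with a dashed line of equal differences. Every receptor except *Tlr5* lies below the dashed line, *Tlr8* has the largest value on both slides, and *Tlr4*, *Tlr5* and *Tlr7* change sign between slides.

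The rest of the pathway gave no call either. Of 73 genes listed by role, 63 had a tested probe, 32 with higher and 31 with lower means in the Ac-LDL samples, and their median log2 fold change was 0.00. None passed the adjusted p of 0.05 in limma, and 5, or 7.94%, had an unadjusted p under 0.05, beside 5.2% of all probes (*Pik3ap1*, *Lgmn*, *Cd180*, *Tnfaip3* and *Irak4*). With the replicate block 17 of the 63 did, or 27%, beside the 13.8% of all probes, and again none passed the adjusted p. The groups did not overlap for 3 genes (4.76%), *Lgmn*, *Pik3ap1* and *Irak4*, beside the 3.8% of all probes.

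The genes listed as co-receptors were split in direction. *Cd14*, which delivers lipopolysaccharide to TLR4 and also assists endosomal receptors, was at 10.55 ± 0.50 in control and 10.07 ± 0.40 in Ac-LDL samples, a log2 fold change of -0.48 ± 0.26 (limma, adjusted p = 0.96, and 0.0808 with the replicate block). *Ly96*, which encodes the TLR4 partner MD-2, differed by -0.11. *Cd180*, a receptor of the same family without a TIR domain, was at 9.43 ± 0.35 and 9.85 ± 0.11, a log2 fold change of 0.42 ± 0.16 (limma, adjusted p = 0.877), and *Lbp*, which encodes the lipopolysaccharide-binding protein, at 5.01 ± 0.20 and 5.31 ± 0.48. The median over the 7 co-receptors was 0.30, with 4 higher and 3 lower means, and it ran from -0.01 to 0.44 with single arrays left out, lowest without control replicate 1. Between slides 5 of the 7 were called, all higher on slide 2, beside 23.6% of all tested probes.

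Endosomal receptors reach their compartment with the chaperone UNC93B1 and are cut there by lysosomal proteases. *Unc93b1* was at 10.38 ± 0.41 in control and 10.64 ± 0.35 in Ac-LDL samples, a log2 fold change of 0.27 ± 0.22 (limma, adjusted p = 0.975). *Lgmn*, which encodes the asparagine endopeptidase that cuts TLR9 and TLR7, was at 13.23 ± 0.19 and 13.59 ± 0.17, and its groups did not overlap, with a log2 fold change of 0.36 ± 0.12 (limma, adjusted p = 0.841). Its difference was 0.38 on slide 1 and 0.34 on slide 2. *Ctsl*, a cathepsin, differed by 0.48 ± 0.27 and *Ap3b1*, a subunit of the AP-3 sorting complex, by 0.13 ± 0.10. Of the 10 genes of this list 7 had higher and 3 lower means, beside 50.4% higher among all tested probes, with a median of 0.12.

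Of the adaptors, *Myd88* was at 11.12 ± 0.05 and 11.06 ± 0.04, a log2 fold change of -0.05, *Ticam1*, which encodes TRIF, differed by 0.02, and *Tirap* by -0.09. *Pik3ap1*, which encodes BCAP and links the receptors to phosphoinositide 3-kinase, was at 10.26 ± 0.17 and 10.63 ± 0.14, a log2 fold change of 0.37 ± 0.12 (limma, adjusted p = 0.764). *Sarm1*, another adaptor gene of the list, was not tested.

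Downstream of the adaptors, *Irak4*, the kinase that opens the MyD88 route, was at 6.85 ± 0.21 in control and 7.13 ± 0.03 in Ac-LDL samples, a log2 fold change of 0.28 ± 0.11 (limma, adjusted p = 0.888). *Ikbke*, a kinase of interferon regulatory factors, differed by 0.28 and *Ikbkg*, which encodes NEMO, by 0.24. Over the 16 kinases and ubiquitin ligases the median was 0.01. The NF-kB subunit genes *Rela* and *Nfkb2* differed by -0.21 and -0.19 and *Irf5*, an interferon regulatory factor that TLR7 and TLR9 signalling uses, by 0.21, around a median of -0.01 over 6 genes.

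Of 9 tested inhibitors of the pathway 8 had lower means, while 50.4% of all tested probes had higher ones. Their median was -0.10, where the median absolute log2 fold change of all tested probes was 0.0927. The median of the inhibitors was -0.19 within slide 1 and -0.06 within slide 2. *Tnfaip3*, which encodes the NF-kB inhibitor A20, was at 7.20 ± 0.19 in control and 6.90 ± 0.14 in Ac-LDL samples, a log2 fold change of -0.30 ± 0.12 (limma, adjusted p = 0.887), and *Il1rl1* and *Tollip* differed by -0.19 and -0.16. Among other receptors with a TIR domain *Il1rap* differed by 0.23 and *Il1r1* by -0.11. Among the cytosolic sensors of nucleic acids *Dhx58*, which encodes LGP2, differed by 0.35 (limma, adjusted p = 0.946), *Aim2* by -0.23 and *Ddx58*, which encodes RIG-I, by -0.13, with a median of 0.03 over 7 genes. None of these passed the adjusted test.

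**Figure D5:**
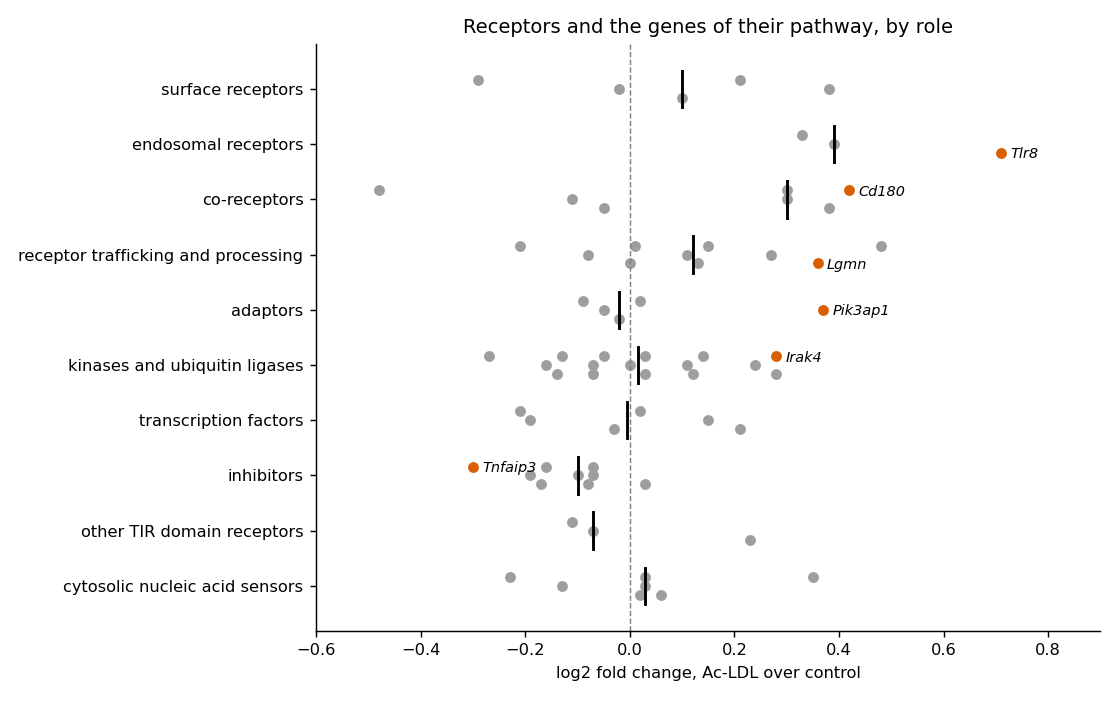
Log2 fold change of Ac-LDL over control for each tested gene of the pathway, grouped by role, with the median of each group as a black line and genes with an unadjusted limma p under 0.05 in orange. The endosomal receptors have the highest median, 0.39 over 3 genes, the inhibitors the lowest, -0.10 over 9 genes, and no point passed the adjusted test.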

How the data were processed

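RNA of 8 macrophage samples (4 control, 4 Ac-LDL) was hybridized to Illumina Mouse WG-6 bead chips. The authors exported the values from BeadStudio, per the labels, and deposited the mean bead intensity of each probe on a linear scale, neither background-subtracted nor normalized. They also deposited a detection p-value against the negative controls of the array, and a bead standard error and bead number, which are other measures of the same beads. The values they normalized in GeneSpring were not used. The results text of the study names another array type and a figure legend triplicates, whereas all 8 deposited arrays carry Illumina probes.

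The neqc function of limma 3.58.1, in R 4.3.3, was applied to the intensities (normexp fitted through the detection p-values, offset 16, quantile normalization, log2). A probe was kept if its detection p-value did not exceed 0.05 on 4 or more of 8 arrays, and the 17122 probes kept were tested with lmFit and eBayes in 2 groups without a block, as the study's test was unpaired, with Benjamini-Hochberg adjustment over all of them. Adjusted p-values are from this fit unless another is named. A receptor is given by its tested probe with the highest mean. The exact permutation tests reported used all 70 assignments of the arrays, without regard to replicate number or slide.

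Deviations from the group means correlated between arrays of the same number, with r of 0.579, 0.479, 0.468 and 0.629, against 0.188 to 0.447 for other numbers on the same slide and at most -0.318 across slides. The numbers were therefore taken to pair the samples, and the number and the slide were each used as a block in alternative fits. The number of arrays limits the precision. The fit was also run on simulated data with independent noise and no differences between slides or replicate numbers. Such data cannot show how the fit performs on arrays that differ by slide and number.

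The receptors and gene lists were chosen with earlier results of these data known. Genes named from a pathway list were those with the 3 lowest unadjusted p-values (2 in lists of under 6 genes) and *Unc93b1*, *Cd14*, *Ly96*, *Myd88*, *Ticam1* and *Irak4*. Genes were found by the symbols deposited with the probes, with older symbols searched for listed genes, and all 10 receptors were found in the RefSeq gene table of GRCm38.p6. Of the 11 receptor probes with coordinates in the annotation, 0 lay in the span of their gene in that build, so coordinates are not reported. Probe sequences are from the deposited annotation. Python 3.11.15 and matplotlib 3.10.9 drew the figures.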

Additional observations from a re-analysis of the deposited data

Results flagged for a closer look

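Of 148 groups of 4 arrays examined over the receptors and their pathway, 5 held an array set apart from the other 3 by a gap above Dixon's 95% critical value for 4 samples, while chance alone gives about 1 in 20 groups. For *Tlr13* it was Ac-LDL replicate 3, at 10.71 on the log2 scale beside 10.31 to 10.38 on the others. For *Cnpy3*, a chaperone of surface receptors, it was Ac-LDL replicate 1 at 5.42, and for the protease gene *Ctsb* the same array at 14.45. For the adaptor gene *Ticam2* it was Ac-LDL replicate 4 at 8.15, and for the kinase gene *Tbk1* that array at 10.55. Without Ac-LDL replicate 3 the *Tlr13* log2 fold change was 0.23, against 0.33 with all 8 arrays. No receptor was called with or without that array.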

How the results depend on the processing

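No receptor and no pathway gene was called under any alternative. Over the alternatives that keep arrays of both slides the *Tlr8* log2 fold change ran from 0.45 to 0.86 and its adjusted p from 0.114 to 1, and *Tlr1*, *Tlr2*, *Tlr6*, *Tlr7* and *Tlr13* kept their direction, although single arrays moved *Tlr7* to between 0.08 and 0.69 and *Tlr1* to between 0.12 and 0.61, both lowest without control replicate 1 and highest without control replicate 4. Within slide 2 *Tlr4* was at -0.17, *Tlr5* at 0.22 and *Tlr7* at -0.10. *Tlr4* was at -0.02 with median scaling, and *Tlr5* at 0.11 with array weights and between -0.23 and 0.11 when single arrays were left out, turning positive without control replicate 1 (0.11), control replicate 2 (0.08) or Ac-LDL replicate 3 (0.05). The cause of these turns was not tested. Over all tested probes the 7 calls became 76 with the replicate block, 55 with the slide block, 14 within slide 1, 16 within slide 2, 26 with median scaling, 16 with array weights, 0 without a filter, 0 with the methods' t-test and 0 to 15 with single arrays left out (0 without Ac-LDL replicate 1, 2 or 3 or control replicate 4, 1 without Ac-LDL replicate 4 and 15 without control replicate 2). At an unadjusted p under 0.05 limma without a filter gave 2290 of 45281 probes and the methods' t-test 1039 of 17122. By that t-test 0 of the 8 receptors and 4 of the 63 pathway genes had an unadjusted p under 0.05. Within slide 1 the median of the surface receptors was 0.35 and that of the endosomal receptors 0.87, against 0.07 and 0.17 within slide 2. With single arrays left out the median of the endosomal receptors ran from 0.22 to 0.69. Within slide 2 the median was -0.12 for co-receptors, 0.15 for adaptors, -0.09 for kinases and 0.18 for other TIR domain receptors. Median scaling, which moved the median of all tested probes to -0.09, gave -0.14 for adaptors, -0.10 for kinases, -0.12 for transcription factors and -0.07 for cytosolic sensors. The excess of the *Tlr8* over the *Tlr7* change ran from 0.17 to 0.47 with single arrays left out, and was 0.15 without background correction and 0.12 with an offset of 50. The median of the co-receptors was 0.12 over probes detected on all 8 arrays, 0.05 with array weights and -0.01 without control replicate 1. The replicate block changed no call of a receptor or pathway gene. *Tlr1*, *Tlr5* and *Tlr8* lie close to background, where differences on this scale are compressed, and with no filter the undetected *Tlr3* probe differed by -0.03 with a 95% interval of -0.26 to 0.20.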

Other observations

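The probes whose values over the 8 arrays ran most like those of *Tlr7* were *5033414K04Rik*, *Sla*, which encodes a Src-like adaptor, and *Rassf4*, each with a root-mean-square difference of 0.10 on the centred log2 scale among 1557 probes that met a minimum spread set from that of *Tlr7*. Their Ac-LDL minus control differences were 0.28, 0.44 and 0.32. Most like *Tlr8* were 2 probes of *Ptgds2*, which encodes the hematopoietic prostaglandin D2 synthase, at 0.13 and 0.14, and *Igf1*, which encodes insulin-like growth factor 1, at 0.14, among 2357 such probes. Their differences were 0.53, 0.59 and 0.60, beside 0.71 for *Tlr8*. These likenesses over 8 arrays include both the difference between slides and the Ac-LDL difference, and are a description without a test. Probes picked in this way must have Ac-LDL differences near that of the receptor, so these values are no separate finding.

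Other parts of the pathway were also compared between slides by limma. Of 10 genes of receptor trafficking and processing 5 were called higher on slide 2 and 1 lower, of 9 inhibitors 4 were called lower and 0 higher, and of the 5 adaptors tested 0 were called, beside 23.6% of all tested probes. *Mertk*, a macrophage receptor for dying cells that was picked out after its values were seen, was at 8.01 ± 0.35 in control and 8.58 ± 0.29 in Ac-LDL samples (SD, n = 4; limma, adjusted p = 0.817, 0.0364 when blocked by replicate and 0.166 when blocked by slide). Of the 8 macrophage markers 5 had higher and 3 lower means with Ac-LDL. *Mertk* was the only 1 of them called with the replicate block, beside 0.444% of all tested probes.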
